A study of Mus musculus with 16 samples.

Results

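Amino acid transporters were examined in TCF1+CD8+ T cells by taking the 9 genes Slc7a5, Slc3a2, Slc7a1, Slc7a6, Slc7a11, Slc1a4, Slc1a5, Slc38a1 and Slc38a2, matched by symbol, out of the 54532 genes of the count table. All 9 had reads in each of the 16 samples. The cells were naive CD8+ T cells from spleens of C57BL/6J mice that had been turned into TCF1+CD8+ T cells in culture by repeated activation over 4 days, so no group represents cells taken directly from an animal. They were held for 1 h with 100 ng/ml prostaglandin E2 (PGE2) or without it, and then kept for 4 h in low-dose IL-2 (85 U/ml). Unstimulated cells received IL-2 alone, and stimulated cells received IL-2 together with beads carrying antibodies to CD3 and CD28 at 1 bead per cell. This gave 4 groups of 4 replicates, which are called unstimulated untreated, unstimulated PGE2, stimulated untreated and stimulated PGE2. All groups therefore shared IL-2, the earlier rounds of activation and the mouse strain. What samples of the same replicate number have in common is not given in the sources used here, so p-values measure the spread between these samples, which may be partly technical.

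T cells that leave the resting state depend on amino acids from outside the cell, both to build protein and to keep the kinase complex mTORC1 active. Slc3a2 encodes the heavy chain CD98, a glycoprotein that carries partner light chains to the cell surface but does not itself form the transport path. Its light chains include Slc7a5 (LAT1), which brings in leucine and other large neutral amino acids in exchange for intracellular ones, Slc7a6 (y+LAT2), which exchanges cationic for neutral amino acids, and Slc7a11 (xCT), which imports cystine against glutamate. Slc7a1 (CAT1) carries arginine and lysine without a heavy chain. Slc1a5 (ASCT2) and Slc1a4 (ASCT1) are sodium-dependent exchangers of small neutral amino acids, with glutamine a main substrate of Slc1a5, and Slc38a1 (SNAT1) and Slc38a2 (SNAT2) are sodium-coupled carriers of glutamine, alanine and serine. Several of these genes are known targets of ATF4, the transcription factor that is made when amino acids run short.

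Because several members are known ATF4 targets, their start regions were read from RefSeq (GRCm38.p6), where 6 of the 9 had a window. Windows cover 250 bases before to 50 bases after the start, and positions are counted from the start. The CEBP-ATF response element, spelled TGATGNAA and searched on both strands, occurred in Slc7a11 and in Slc1a4, and it occurred in 3.97% of all 32851 windows. Slc7a11 is shown because it held 2 matches, Slc1a4 because its match crossed the start, and Slc38a2 for contrast, as the member whose group means differed least as a ratio. Capitals mark the matched letters of any word searched. The stretches shown are the 250 bases before the start, read 5′ to 3′ on the gene's strand.
Slc7a11, chr3:50443614-50443863, minus strand: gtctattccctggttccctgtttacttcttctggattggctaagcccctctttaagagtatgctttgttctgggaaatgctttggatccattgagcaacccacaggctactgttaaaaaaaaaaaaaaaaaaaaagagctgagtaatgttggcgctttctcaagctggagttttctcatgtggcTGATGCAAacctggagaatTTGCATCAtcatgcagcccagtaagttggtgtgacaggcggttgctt
Slc1a4, chr11:20332714-20332963, minus strand: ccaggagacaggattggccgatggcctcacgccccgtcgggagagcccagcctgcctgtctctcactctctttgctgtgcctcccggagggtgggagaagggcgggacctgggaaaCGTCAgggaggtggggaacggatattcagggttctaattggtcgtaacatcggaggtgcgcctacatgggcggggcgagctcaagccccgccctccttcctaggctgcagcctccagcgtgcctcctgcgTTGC
Slc38a2, chr15:96699729-96699978, minus strand: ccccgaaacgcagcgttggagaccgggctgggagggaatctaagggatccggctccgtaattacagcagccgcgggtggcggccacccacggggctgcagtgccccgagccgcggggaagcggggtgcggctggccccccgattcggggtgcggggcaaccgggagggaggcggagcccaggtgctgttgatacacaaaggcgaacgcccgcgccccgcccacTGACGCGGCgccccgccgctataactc
In Slc7a11 the words began at -66 and at -47, on opposite strands. In Slc1a4 the TTGC that ends the stretch is the first part of TTGCATCA, whose remaining letters lie past the start, and CGTCA is the reverse complement of TGACG, a shorter form of the cAMP response element. The capitals in Slc38a2, from -27, are a TGACG that overlaps TGACNNNGC, the core of the antioxidant response element. The same overlap stood in Slc7a6 as a single site that lies in both of its overlapping windows. It was at -1 of the window chr8:106168604-106168903 and at -68 of the window chr8:106168671-106168970. For the latter window, the bases after the start were not found near the beginning of a GENCODE M21 transcript of the gene. Slc7a1 had 2 windows for separate starts, of which the one at chr5:148399855-148400154 held TGACG at -184 and 14 and TGACNNNGC at -11, and the one at chr5:148392766-148393065 held none of the words. TGACG occurred in 20.8% of all windows and TGACNNNGC in 12.4%. The full cAMP response element TGACGTCA (1.79% of windows) and the E-box CACGTG (7.15%) were found in no member's window, and no word was found in the Slc3a2 window. The Slc3a2 window, chr19:8713848-8714147, lies inside the gene's span. Its bases after the start were not found near the beginning of any GENCODE M21 transcript of the gene. Slc7a5, Slc1a5 and Slc38a1 were not analysed for promoter words. A match describes letters only.

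The samples held 22678254 to 42950763 counts. The table and its gene models are on GRCm38, where Slc7a5 lies at chr8:121881150-121907694 (minus strand), Slc7a6 at chr8:106168857-106198706 (plus strand), Slc3a2 at chr19:8706882-8723369 (minus strand) and Slc7a1 at chr5:148327410-148399904 (minus strand). Slc1a5 lies at chr7:16781340-16798274 (plus strand), Slc1a4 at chr11:20302180-20332713 (minus strand), and Slc7a11 at chr3:49892526-50443614 (minus strand). Slc38a1 (chr15:96571418-96642913) and Slc38a2 (chr15:96687392-96699730) are neighbours on the minus strand. Values cover all exons of a gene together, and in GENCODE M21 no other gene shares exon bases with any member. The 8 CD8+ T cell markers summed to between 4026 and 6017 CPM (counts of a gene relative to the scaled library size) in a sample. In the CD4 T cell list, Cd4 averaged under 1 CPM in each group, whereas Foxp3 averaged 4.24 to 5.93 CPM. Cd40lg averaged 0.366 and 0.435 CPM in unstimulated untreated and unstimulated PGE2 cells, and 2.91 and 2.61 CPM in stimulated untreated and stimulated PGE2 cells. The highest sum of this list in a sample was 10.2 CPM. Ncr1 and Klra8, which define NK cells, and the globin genes Hbb-bs and Hbb-bt were at 0 in all groups, and Lyz2 was at or near 0. Klrb1c, the remaining gene of the NK list beside Eomes, averaged at most 0.0391 CPM in any group. The summed NK list, carried by Eomes, moved with stimulation and with PGE2. It was 12.3 to 24.1 CPM in unstimulated untreated, 5.55 to 10.9 in unstimulated PGE2, 112 to 178 in stimulated untreated and 36.5 to 128 in stimulated PGE2 samples, and its part in the results was not tested. The B cell list summed to 4.47 to 21.0 CPM and the myeloid list to 55.5 to 70.8 CPM. The myeloid sum was carried by Cst3, which averaged 53.1 to 61.2 CPM in the groups. Cd68 averaged 3.27 to 5.10 CPM, and Itgam, Csf1r and Adgre1 averaged at most 0.299 CPM in any group. Tcf7, which encodes TCF1, averaged 1175 CPM in unstimulated untreated, 1187 in unstimulated PGE2, 309 in stimulated untreated and 407 in stimulated PGE2 cells.

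**Figure D1:**
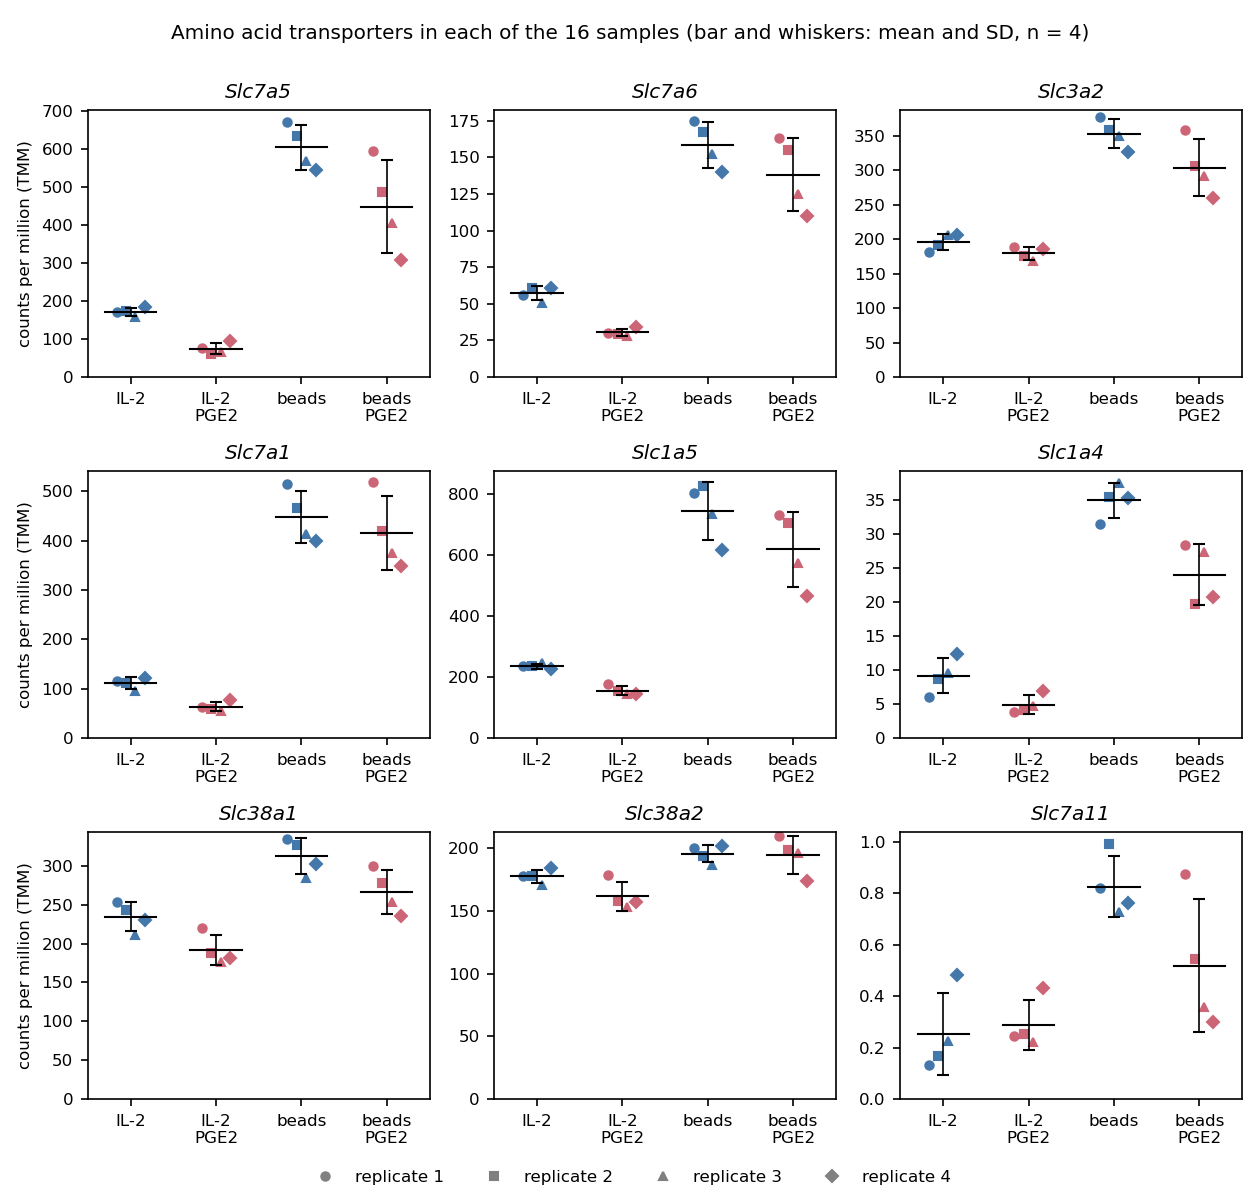
Level of each transporter in each sample, in CPM scaled by TMM, with 1 panel per gene, 1 point per sample (marker shape gives the replicate number), a bar for the mean and whiskers for the SD (n = 4). Slc7a5 lay between 60.8 and 185 CPM in unstimulated cells and between 308 and 673 CPM in stimulated cells, whereas Slc38a2 stayed between 153 and 210 CPM throughout, and Slc7a11 did not exceed 0.992 CPM.

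Levels are given as CPM, which do not correct for gene length and are compared only within a gene. The large neutral carrier Slc7a5 stood at 171, 174, 158 and 185 CPM in replicates 1 to 4 of unstimulated untreated cells and at 77.2, 60.8, 67.1 and 94.2 CPM in unstimulated PGE2 cells. In stimulated cells it stood at 673, 635, 569 and 545 CPM without PGE2 and at 595, 488, 406 and 308 CPM with it. All 8 stimulated samples were above all 8 unstimulated ones, and the unstimulated PGE2 samples were below the unstimulated untreated ones without overlap. In stimulated cells the PGE2 range reached into the untreated range through replicate 1.

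Slc7a6, the other light chain among the members with a level above 1 CPM, had the same layout at a lower level. It measured 56.1, 60.7, 50.7 and 60.8 CPM in unstimulated untreated cells and 30.4, 29.7, 28.1 and 34.1 CPM in unstimulated PGE2 cells. Stimulated cells had 175, 167, 152 and 140 CPM without PGE2 and 163, 155, 125 and 110 CPM with it. Again the PGE2 groups were apart in unstimulated and overlapped in stimulated cells.

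The heavy chain gene Slc3a2 varied less. It measured 182, 191, 206 and 206 CPM in unstimulated untreated cells and 188, 175, 169 and 186 CPM in unstimulated PGE2 cells. In stimulated cells the values were 377, 359, 350 and 326 CPM without PGE2 and 358, 306, 291 and 260 CPM with it. Its PGE2-treated and untreated groups overlapped under both conditions.

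The cationic carrier Slc7a1 measured 116, 112, 94.9 and 122 CPM in unstimulated untreated cells and 63.6, 58.1, 55.1 and 76.6 CPM in unstimulated PGE2 cells. In stimulated cells it stood at 515, 466, 413 and 400 CPM without PGE2 and at 518, 420, 374 and 349 CPM with it. The stimulated groups overlapped over most of their range, and replicate 1 was the highest in both.

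The glutamine exchanger Slc1a5 measured 236, 236, 245 and 225 CPM in unstimulated untreated cells and 178, 155, 144 and 145 CPM in unstimulated PGE2 cells. Stimulated cells had 803, 827, 733 and 615 CPM without PGE2 and 731, 705, 572 and 466 CPM with it. Slc1a4, its relative, stood at 6.04, 8.76, 9.55 and 12.3 CPM in unstimulated untreated and at 3.83, 4.17, 4.74 and 6.95 CPM in unstimulated PGE2 cells, which overlapped. In stimulated cells it stood at 31.5, 35.5, 37.6 and 35.4 CPM without PGE2 and at 28.4, 19.7, 27.4 and 20.7 CPM with it, so that every PGE2 sample was below every untreated one.

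Slc38a1 ranged from 211 to 254 CPM in unstimulated untreated, 176 to 220 in unstimulated PGE2, 284 to 335 in stimulated untreated and 235 to 300 in stimulated PGE2 cells. Slc38a2 ranged from 171 to 184, 153 to 179, 187 to 202 and 174 to 210 CPM in the same order. The cystine carrier Slc7a11 rested on 3 to 17 reads per unstimulated sample and on 7 to 31 reads per stimulated sample, so counting error bears on its values. It measured 0.821, 0.992, 0.727 and 0.760 CPM in stimulated untreated cells and 0.874, 0.544, 0.357 and 0.299 CPM in stimulated PGE2 cells.

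Levels of different genes were compared per length, as deposited FPKM. The length is that of all exons of a gene together, from 3529 bases for Slc3a2 to 17236 for Slc38a1. It can exceed the length of the RNA present, by amounts that differ between genes, so the order of genes depends on it. In unstimulated untreated cells Slc1a5 (53.7 ± 1.90 FPKM, SD, n = 4) and Slc3a2 (53.0 ± 2.97 FPKM) overlapped at the top, followed by Slc7a5 (44.1 ± 2.94 FPKM), Slc38a2 (19.1 ± 0.612 FPKM) and Slc38a1 (12.9 ± 1.08 FPKM). Slc7a6 (11.9 ± 1.02 FPKM) overlapped Slc38a1, and Slc7a1 (9.18 ± 0.980 FPKM), Slc1a4 (2.22 ± 0.621 FPKM) and Slc7a11 (0.0172 ± 0.0108 FPKM) came last without overlap. In unstimulated PGE2 cells the first place went to Slc3a2 (49.1 ± 2.34 FPKM), whose samples were all above those of Slc1a5 (35.8 ± 3.67 FPKM), and Slc7a5 (19.4 ± 3.67 FPKM) overlapped Slc38a2 (17.6 ± 1.31 FPKM). In stimulated untreated cells Slc1a5 (170 ± 24.7 FPKM) and Slc7a5 (155 ± 18.5 FPKM) overlapped above Slc3a2 (95.3 ± 7.57 FPKM), and Slc7a1 (37.1 ± 5.16 FPKM) and Slc7a6 (33.0 ± 3.92 FPKM) had moved past both Slc38 genes. In stimulated PGE2 cells the order of the means was the same, but Slc7a5 (115 ± 32.5 FPKM) overlapped both Slc1a5 (141 ± 29.2 FPKM) and Slc3a2 (81.8 ± 11.9 FPKM). Slc1a4 and Slc7a11 kept the 2 lowest places in all 4 groups.

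**Figure D2:**
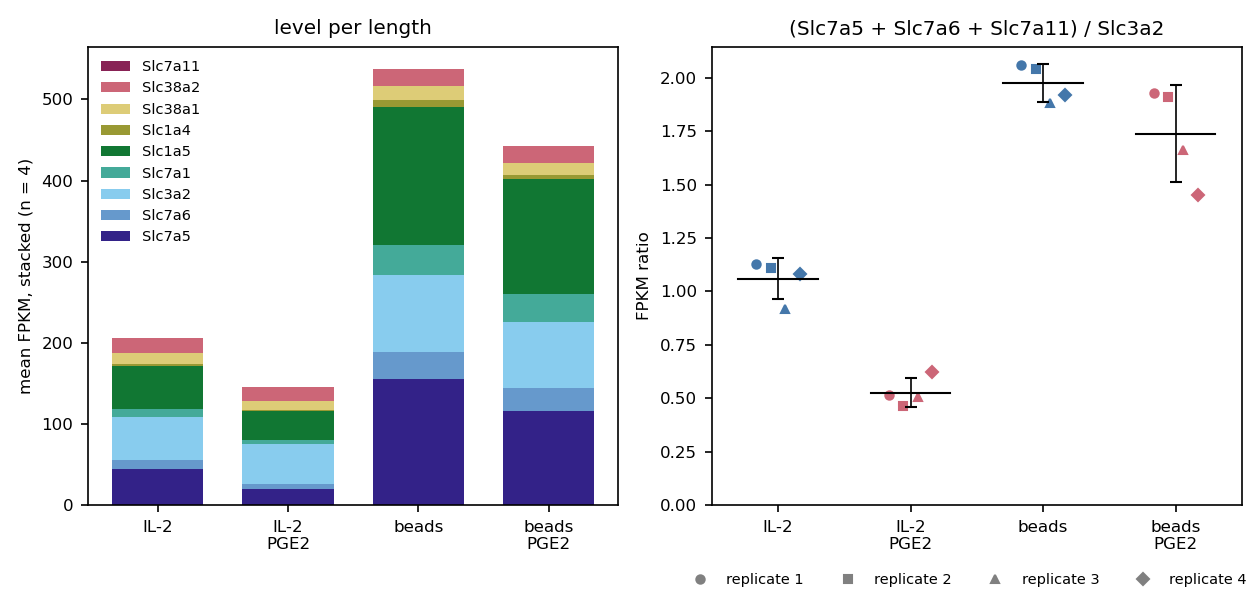
Left, mean FPKM of the 9 transporters stacked by group (n = 4). Right, the summed FPKM of the light chains Slc7a5, Slc7a6 and Slc7a11 divided by the FPKM of the heavy chain Slc3a2, with 1 point per sample, a bar for the mean and whiskers for the SD. The ratio was 0.462 to 0.622 in unstimulated PGE2 cells, 0.917 to 1.13 in unstimulated untreated cells and 1.45 to 2.06 in stimulated cells.

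The balance of light to heavy chain transcripts differed between the groups. Summed FPKM of Slc7a5, Slc7a6 and Slc7a11 over FPKM of Slc3a2 was 1.06 ± 0.0978 (SD, n = 4) in unstimulated untreated cells and 0.526 ± 0.0681 in unstimulated PGE2 cells, with no overlap. It was 1.97 ± 0.0884 in stimulated untreated cells and 1.74 ± 0.227 in stimulated PGE2 cells, whose ranges, 1.88 to 2.06 and 1.45 to 1.93, overlapped. Within replicate numbers the stimulated ratio was lower with PGE2 in 4 of 4, at 1.93 beside 2.06, 1.91 beside 2.04, 1.66 beside 1.88 and 1.45 beside 1.92. Slc7a5 made up most of the light chain FPKM, at 3.00 ± 0.369 times the FPKM of Slc7a6 in unstimulated PGE2 cells and 4.72 ± 0.0836 times in stimulated untreated cells. These ratios are descriptions of transcript levels, and protein was not measured in this series.

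Stimulation without PGE2 compares stimulated untreated with unstimulated untreated cells and asks how the receptor signal alters the transporters. Under edgeR's quasi-likelihood test with Benjamini-Hochberg adjustment, 8 of the 9 members rose (adjusted p below 0.05), against 31.7% of the 14205 genes tested that rose and 34.8% that fell. Of these, 6 were DEGs, which also needed a fold change of at least 2, against 11.5% of genes that were DEGs upward. In all 9 members every stimulated sample was above every unstimulated one, which held for 29.5% of genes. The cationic carrier Slc7a1 rose by 2.00 ± 0.106 on the log2 scale (SE, edgeR adjusted p = 2.1e-08), and Slc1a4 by 1.90 ± 0.163 (edgeR adjusted p = 5.5e-07). The light chains Slc7a5 and Slc7a6 rose by 1.80 ± 0.0917 (edgeR adjusted p = 1.67e-08) and 1.46 ± 0.0926 (edgeR adjusted p = 5.76e-08), and their partner Slc3a2 by 0.83 ± 0.0792 (edgeR adjusted p = 1.34e-06). Slc1a5 rose by 1.65 ± 0.101 and Slc38a1 by 0.40 ± 0.0821. Slc7a11 rose by 1.64 ± 0.372 (edgeR adjusted p = 0.00174), from 0.251 ± 0.158 to 0.825 ± 0.118 CPM. Slc38a2 had a log2 fold change of 0.12 ± 0.0622 (edgeR adjusted p = 0.0963), and with the replicate number as a block its adjusted p was 0.0489, in a fit that called 34.8% of genes higher. With bulk samples, a change in RNA per cell and a change in the share of cells that carry a transcript cannot be told apart. The median log2 fold change of the members was 1.64, and that of all genes tested was -0.03.

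**Figure D3:**
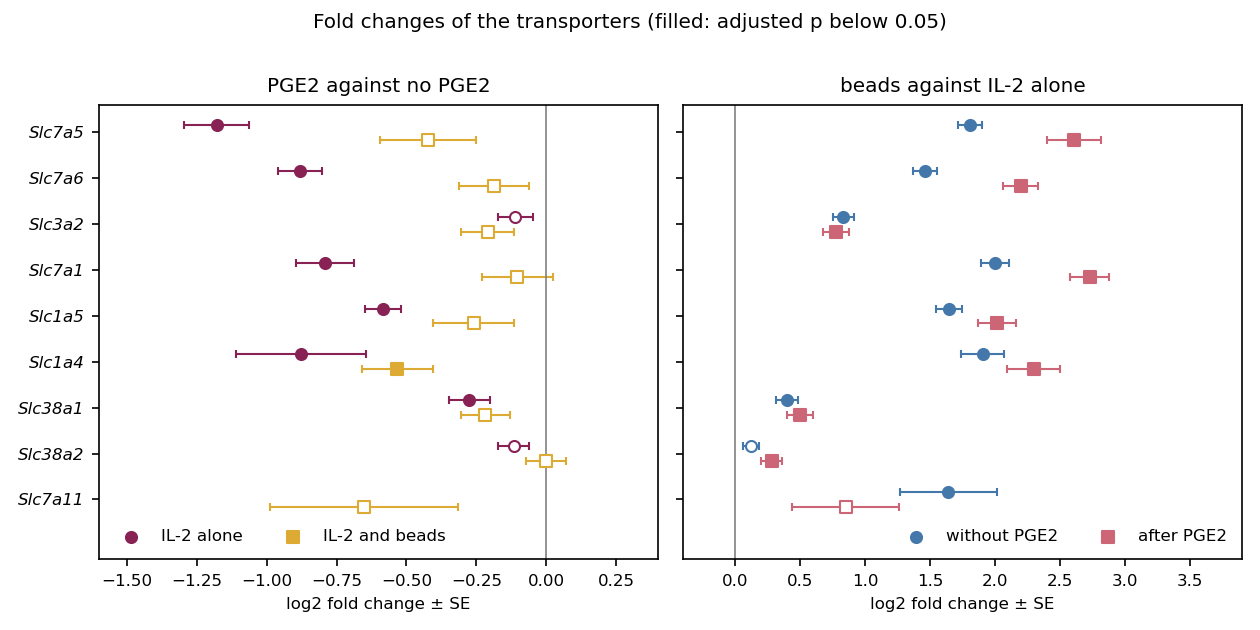
Log2 fold changes of the 9 transporters with their standard errors, for PGE2 against no PGE2 on the left and for beads against IL-2 alone on the right, with 4 samples in each group. Filled symbols have an edgeR adjusted p below 0.05. PGE2 lowered 6 members in unstimulated cells and Slc1a4 in stimulated cells, and the bead response of Slc7a6 was 1.46 without PGE2 and 2.20 after it.

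PGE2 in unstimulated cells compares the 2 groups that had IL-2 alone. Of the 8 members tested, 6 fell and none rose, against 15.5% of the 14505 genes tested that fell and 12.9% that rose. Slc7a11 did not pass the filter on low counts and stood at 0.288 ± 0.0974 CPM with PGE2 and 0.251 ± 0.158 CPM without (SD, n = 4). Slc7a5 fell by 1.18 ± 0.115 on the log2 scale (SE, edgeR adjusted p = 3.26e-05), to 0.441 times its untreated level, and was the 1 DEG among the members, where 1.92% of genes were DEGs downward. Slc7a6 fell by 0.88 ± 0.0786 (edgeR adjusted p = 1.91e-05), Slc7a1 by 0.79 ± 0.104 (edgeR adjusted p = 0.000222) and Slc1a5 by 0.58 ± 0.0654 (edgeR adjusted p = 7.7e-05). In these 4 genes every PGE2 sample was below every untreated one, as in 16.1% of the genes tested. Slc1a4 fell by 0.88 ± 0.233 (edgeR adjusted p = 0.0156) and Slc38a1 by 0.27 ± 0.0729 (edgeR adjusted p = 0.0154), with overlapping groups. The call on Slc1a4 was lost without unstimulated PGE2 replicate 2 (edgeR adjusted p = 0.0522). The call on Slc38a1 was lost without unstimulated untreated replicate 2 (edgeR adjusted p = 0.0783), without unstimulated PGE2 replicate 2 (0.0719) or without unstimulated PGE2 replicate 3 (0.0516). With limma on log2(FPKM + 1) and no filter both calls were lost (adjusted p = 0.0856 for Slc1a4 and 0.0906 for Slc38a1). Slc3a2 and Slc38a2 had log2 fold changes of -0.11 ± 0.0613 (edgeR adjusted p = 0.214) and -0.12 ± 0.0549 (edgeR adjusted p = 0.142). With the replicate block both were called lower, at adjusted p = 0.0434 and 0.0189, so that 8 of 8 members were lower in a fit that called 24.2% of genes lower. The members' median log2 fold change was -0.69, beside 0.00 for all genes tested.

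PGE2 in stimulated cells compares the 2 groups that had beads and asks whether PGE2 alters the transporters of cells that receive the receptor signal. In the fit without a block, Slc1a4 fell and the other 8 members did not pass the test, against 3.80% of the 13922 genes tested that fell and 6.04% that rose. Slc1a4 fell by 0.53 ± 0.128 on the log2 scale (SE, edgeR adjusted p = 0.0296), from 35.0 ± 2.55 to 24.0 ± 4.50 CPM (SD, n = 4), and it was the 1 member whose groups did not overlap, as 8.06% of genes did downward. That call was lost without stimulated untreated replicate 2 (edgeR adjusted p = 0.0862), 3 (0.0789) or 4 (0.0538) and without stimulated PGE2 replicate 2 (0.0637) or 4 (0.0697). Slc7a5 had a log2 fold change of -0.42 ± 0.171 (edgeR adjusted p = 0.147), and without stimulated PGE2 replicate 1, its highest PGE2 sample, the value was -0.58 (edgeR adjusted p = 0.0310). The remaining values were -0.26 ± 0.145 for Slc1a5, -0.22 ± 0.0879 for Slc38a1, -0.21 ± 0.0960 for Slc3a2, -0.19 ± 0.125 for Slc7a6 and -0.10 ± 0.126 for Slc7a1, with edgeR adjusted p of 0.146 to 0.618. Slc38a2 was at 0.00 ± 0.0701 (edgeR adjusted p = 0.997). Slc7a11 had the lowest value, -0.65 ± 0.336, at an edgeR adjusted p of 0.238.

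Samples of the same replicate number deviated together in both PGE2 comparisons, less clearly for replicate 2 in stimulated cells (correlation 0.190 with its own number, 0.247 with another). The fit with the replicate number as a block is therefore given beside this result. In it 6 of the 9 members were lower in stimulated PGE2 cells, and the block also called 20.7% of all genes lower. Slc7a5 stood at -0.46 ± 0.0862 (edgeR adjusted p = 0.00191) and Slc1a4 at -0.54 ± 0.103 (edgeR adjusted p = 0.00213) on the log2 scale. Slc1a5 (-0.27, adjusted p = 0.00259), Slc38a1 (-0.22, adjusted p = 0.00455), Slc3a2 (-0.22, adjusted p = 0.00703) and Slc7a6 (-0.20, adjusted p = 0.0123) were also called. Slc7a1 (-0.11, adjusted p = 0.0908), Slc7a11 (-0.66, adjusted p = 0.113) and Slc38a2 (0.00, adjusted p = 0.973) were not. Within each replicate number the Slc7a5 level of the stimulated PGE2 sample was 0.884, 0.768, 0.714 and 0.565 times that of the untreated sample. The 6 genes called in the block fit were below 1 in 4 of 4 numbers. As that fit uses the same differences within numbers, this describes its calls and is not separate support. In stimulated PGE2 cells replicate 1 was the highest for all 9 members and replicate 4 the lowest for 8 of them, and in stimulated untreated cells replicate 1 was the highest and replicate 4 the lowest for 5 each. This order was not counted over all genes, so it cannot be called particular to the members.

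**Figure D4:**
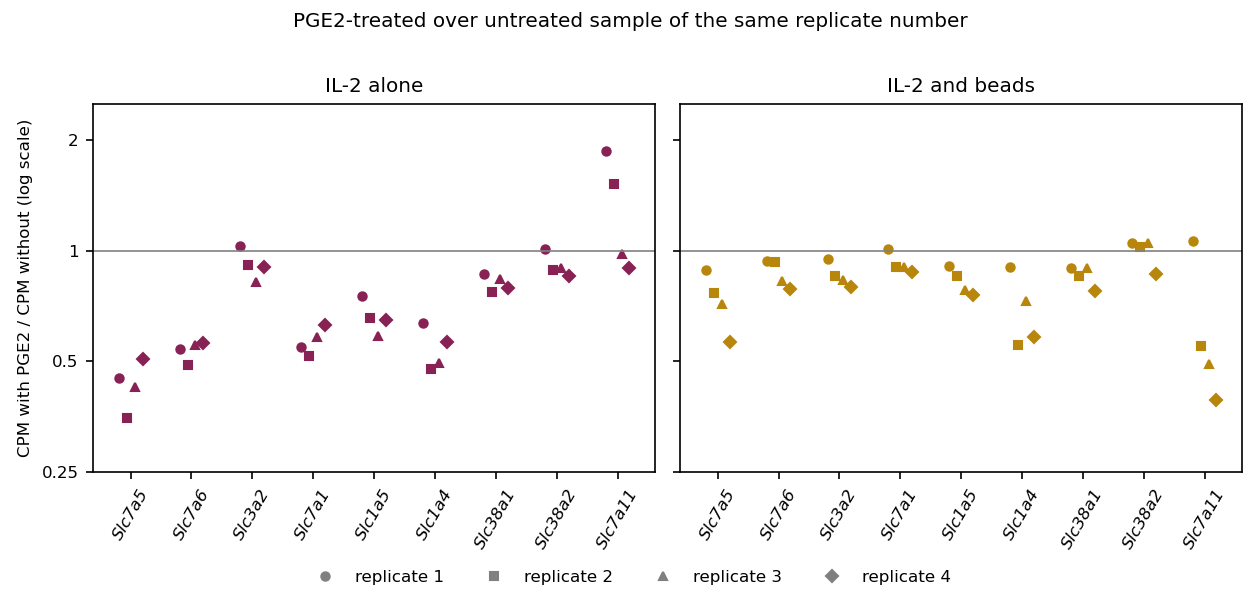
CPM of the PGE2-treated sample divided by CPM of the untreated sample with the same replicate number, on a log scale, for cells with IL-2 alone (left) and cells with IL-2 and beads (right), with 1 point per replicate number. In unstimulated cells the Slc7a5 ratios were 0.350 to 0.509 and those of Slc7a6 0.489 to 0.560, and in stimulated cells they were 0.565 to 0.884 and 0.787 to 0.934.

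Stimulation with PGE2 compares stimulated PGE2 with unstimulated PGE2 cells. It shares its samples with the comparisons above, so its values are given side by side with them and not as separate support. Again 8 of 9 members rose, against 32.5% of the 14507 genes tested that rose and 31.7% that fell. Of these, 5 were DEGs, against 12.7% of genes upward, and 7 had groups without overlap, against 30.7%. On the log2 scale Slc7a1 rose by 2.73 ± 0.150 (SE, edgeR adjusted p = 1.1e-06), Slc7a5 by 2.61 ± 0.208 (edgeR adjusted p = 2.74e-06) and Slc7a6 by 2.20 ± 0.135 (edgeR adjusted p = 1.19e-06). Slc1a4 rose by 2.30 ± 0.205 and Slc1a5 by 2.01 ± 0.144. The heavy chain Slc3a2 rose by 0.77 ± 0.101, Slc38a1 by 0.50 ± 0.0969 and Slc38a2 by 0.28 ± 0.0806 (edgeR adjusted p = 0.00984). The call on Slc38a2 was lost without unstimulated PGE2 replicate 3 (edgeR adjusted p = 0.0665), without stimulated PGE2 replicate 2 (0.0505) and with upper-quartile scaling (0.0534). Slc7a11 had a value of 0.85 ± 0.412 (edgeR adjusted p = 0.0921), and its groups overlapped.

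The interaction tests whether the PGE2 effect differed between stimulated and unstimulated cells, over all 16 samples. Slc7a6 was the 1 member called, with an interaction of 0.71 ± 0.158 on the log2 scale (SE, edgeR adjusted p = 0.0456), against 0.517% of the 15096 genes tested that were called in that direction. This means that its PGE2 effect was less negative in stimulated cells, -0.19 beside -0.88. The call was kept in 3 of the 16 fits that left out 1 sample, namely those without unstimulated untreated replicate 3 (edgeR adjusted p = 0.0494), unstimulated PGE2 replicate 4 (0.0362) or stimulated PGE2 replicate 4 (0.00572), and the other 13 gave 0.0519 to 0.125. It was also lost with RLE factors (adjusted p = 0.0915) and in the 3 limma settings (adjusted p = 0.119 to 0.337). The interaction was 0.70 ± 0.179 for Slc7a1 (edgeR adjusted p = 0.0878) and 0.77 ± 0.224 for Slc7a5 (edgeR adjusted p = 0.163). Without stimulated PGE2 replicate 4 these came to adjusted p = 0.0358 and 0.0175, and without unstimulated PGE2 replicate 4 that of Slc7a1 was 0.0369. The other values were 0.36 ± 0.273 for Slc1a4, 0.34 ± 0.172 for Slc1a5, 0.13 ± 0.0941 for Slc38a2, 0.07 ± 0.126 for Slc38a1, -0.09 ± 0.119 for Slc3a2 and -0.82 ± 0.567 for Slc7a11. For these 6 genes an effect of PGE2 that differs with stimulation was not detected at this spread (edgeR adjusted p of 0.599 to 0.958).

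The likeness of other genes to Slc7a5 was measured as the root mean square difference of log2 CPM over the 16 samples, after each gene's mean was removed, among the 8868 genes that averaged 10 CPM or more. The 5 closest were Camkk2 (0.101), Mybbp1a (0.105), Gcsh (0.117), Nat10 (0.120) and Wdr75 (0.121). Camkk2 encodes a calcium-dependent kinase and averaged 26.0, 10.7, 86.5 and 64.8 CPM in unstimulated untreated, unstimulated PGE2, stimulated untreated and stimulated PGE2 cells. Mybbp1a, a nucleolar protein gene, averaged 270, 123, 927 and 726 CPM in the same order. Gcsh encodes a subunit of the glycine cleavage system, Nat10 an RNA acetyltransferase and Wdr75 a factor of ribosome assembly. Among the members, Slc7a1 was number 91 in this order, Slc7a6 number 123, Slc1a4 number 189 and Slc1a5 number 228, while Slc3a2 was number 1383, Slc38a1 number 2151 and Slc38a2 number 3315. The measure is a description over samples that share groups.

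Other plasma membrane and lysosomal carriers of amino acids were taken as a list of 46 genes, of which 17 passed the count filter in stimulated cells. Stimulation without PGE2 raised 4 of these and lowered 8, with a median log2 fold change of -0.35, beside 1.64 for the members. Over all genes tested 31.7% rose and 34.8% fell. Slc6a19, a carrier of neutral amino acids best known from gut and kidney, fell from 19.0 ± 5.41 to 3.19 ± 0.539 CPM (SD, n = 4). Slc43a2 (LAT4), which carries large neutral amino acids without a heavy chain, fell by 2.39 ± 0.128 on the log2 scale (SE, edgeR adjusted p = 2.23e-08), and Ctns, the lysosomal cystine exporter, by 1.97 ± 0.148 (edgeR adjusted p = 1.87e-07). After PGE2, stimulation raised 4 and lowered 9 of 17, beside 32.5% of all genes that rose and 31.7% that fell. Slc6a9, a glycine carrier, was among those that rose (1.80 ± 0.245 on the log2 scale, edgeR adjusted p = 7.94e-05). PGE2 raised 2 and lowered 2 of 17 in stimulated cells and raised 5 and lowered 2 of 18 in unstimulated cells, with medians of 0.02 and 0.13. Over all genes, 6.04% rose and 3.80% fell in stimulated and 12.9% rose and 15.5% fell in unstimulated cells, so the share of these carriers that fell in unstimulated cells was near that of all genes. Slc16a10, a carrier of aromatic amino acids, fell under both conditions, by 0.70 ± 0.137 (edgeR adjusted p = 0.0115) in stimulated and by 0.56 ± 0.130 (edgeR adjusted p = 0.00769) in unstimulated cells. Slc6a19 rose under both, by 1.11 ± 0.185 (edgeR adjusted p = 0.00536) and 0.76 ± 0.227 (edgeR adjusted p = 0.0274). Ctns rose by 0.86 ± 0.198 in stimulated cells (edgeR adjusted p = 0.0243), and Slc43a1 (LAT3) by 0.57 ± 0.0937 in unstimulated cells (edgeR adjusted p = 0.000980).

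The cytosolic aminoacyl-tRNA synthetases, which load amino acids onto tRNA, were a list of 20 genes, all tested. Stimulation without PGE2 raised 17 and lowered 1 of them (median 0.86 on the log2 scale), and stimulation with PGE2 raised 18 and lowered 1 (median 1.12), beside 31.7% and 32.5% of all genes that rose and 34.8% and 31.7% that fell. Tars rose from 115 ± 8.94 to 271 ± 25.5 CPM and Rars from 96.5 ± 10.5 to 237 ± 28.4 CPM (SD, n = 4) in stimulation without PGE2. PGE2 lowered 15 and raised none in unstimulated cells (median -0.47), with Farsb at 69.7 ± 4.22 CPM without and 38.8 ± 3.78 CPM with PGE2 and Iars at 136 ± 13.7 and 79.8 ± 12.4 CPM. In stimulated cells it lowered 5 and raised none (median -0.26), with Yars at 185 ± 7.16 CPM without and 142 ± 12.2 CPM with PGE2 and Mars at 200 ± 7.84 and 163 ± 8.69 CPM. Over all genes 15.5% fell and 12.9% rose with PGE2 in unstimulated cells, and 3.80% fell and 6.04% rose in stimulated cells.

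The 37 genes listed for mTORC1 and the sensing of amino acids upstream of it were all tested. They include Mtor and Rptor, which are parts of mTORC1 itself, as well as Tsc1, Tsc2 and Rheb. Stimulation raised 12 and lowered 14 without PGE2 (median -0.11) and raised 12 and lowered 15 with it (median -0.06), shares close to those of all genes (31.7% higher and 34.8% lower without PGE2, 32.5% and 31.7% with it). Fnip2, a partner of folliculin, rose from 4.29 ± 0.911 to 27.7 ± 3.84 CPM (SD, n = 4) without PGE2, and Castor2, a relative of the arginine sensor, fell from 18.6 ± 1.54 to 4.62 ± 1.15 CPM. PGE2 raised 6 and lowered 2 in stimulated cells (median -0.02) and raised 7 and lowered 8 in unstimulated cells (median -0.03), beside 6.04% and 3.80% of all genes in stimulated and 12.9% and 15.5% in unstimulated cells. Castor2 rose with PGE2 in stimulated cells by 1.45 ± 0.217 on the log2 scale (SE, edgeR adjusted p = 0.00314) and in unstimulated cells by 1.02 ± 0.0833 (edgeR adjusted p = 1.1e-05). Among the Sestrins, which include the leucine sensor, Sesn3 rose by 1.07 ± 0.133 in stimulated cells (edgeR adjusted p = 0.00128), while Sesn2, which binds leucine, fell by 0.43 ± 0.119 (edgeR adjusted p = 0.0478). Rptor, the mTORC1 scaffold, rose with PGE2 from 76.1 ± 8.71 to 142 ± 30.2 CPM in unstimulated cells.

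Of 22 genes for the use of imported glutamine, cystine, arginine and branched-chain amino acids, 20 were tested. Stimulation raised 11 and lowered 5 without PGE2 (median 0.28) and raised 14 and lowered 2 with it (median 0.40), beside 31.7% of all genes higher and 34.8% lower without PGE2 and 32.5% and 31.7% with it. Bcat1, the cytosolic branched-chain aminotransferase that acts on leucine, rose from 34.7 ± 7.74 to 155 ± 14.1 CPM (SD, n = 4) without PGE2 and from 12.6 ± 5.79 to 112 ± 17.4 CPM with it. Between the PGE2 groups Bcat1 fell by 1.43 ± 0.263 on the log2 scale in unstimulated (SE, edgeR adjusted p = 0.00189) and by 0.46 ± 0.112 in stimulated cells (edgeR adjusted p = 0.0303). PGE2 raised 5 and lowered 6 of these genes in unstimulated (median -0.17) and raised 1 and lowered 4 in stimulated cells (median -0.07), beside 12.9% and 15.5% of all genes in unstimulated and 6.04% and 3.80% in stimulated cells. Glud1, which releases ammonia from glutamate, was the 1 that rose in stimulated cells, from 248 ± 12.0 to 333 ± 22.2 CPM. Chac1, which breaks down glutathione and is a known ATF4 target, fell from 19.7 ± 2.06 to 12.1 ± 3.15 CPM there, and Gls2, the liver-type glutaminase, rose from 4.84 ± 2.47 to 13.8 ± 5.15 CPM in unstimulated cells.

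Of 13 transcriptional and kinase regulators of amino acid supply, stimulation raised 6 and lowered 4 both without PGE2 (median 0.10) and with it (median 0.14). The share that fell was close to that of all genes, 34.8% without PGE2 and 31.7% with it, and 31.7% and 32.5% of all genes rose. Myc, a known activator of Slc7a5 and Slc1a5, rose from 137 ± 22.6 to 1182 ± 192 CPM (SD, n = 4) without PGE2 and from 69.0 ± 13.7 to 990 ± 318 CPM with it. Atf4 rose by 1.14 ± 0.0751 on the log2 scale without PGE2 (SE, edgeR adjusted p = 7.64e-08) and by 1.14 ± 0.0983 with it (edgeR adjusted p = 3.93e-06). PGE2 raised 2 and lowered 1 of the 13 in unstimulated cells (median 0.04), where Myc fell by 0.97 ± 0.140 on the log2 scale (SE, edgeR adjusted p = 0.000422). In stimulated cells PGE2 raised 2 and lowered none (median -0.11). Over all genes 12.9% rose and 15.5% fell in unstimulated cells, and 6.04% rose and 3.80% fell in stimulated cells. The 2 raised genes were the same in both conditions. Hif1a rose from 404 ± 28.2 to 748 ± 88.4 CPM in stimulated and from 306 ± 30.5 to 412 ± 28.7 CPM in unstimulated cells. Eif2ak3, the kinase PERK, rose from 29.0 ± 5.47 to 53.1 ± 12.0 CPM and from 108 ± 3.82 to 187 ± 10.5 CPM. In none of these 5 lists was an interaction of PGE2 and stimulation called. Over all 15096 genes tested 0.517% were called higher and 0.232% lower, so few calls would be looked for in lists of this size.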

How the data were processed

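The study sequenced poly(A) RNA of 16 samples in 4 groups of 4. The authors aligned reads to GRCm38 with HISAT2 2.0.5, counted them per gene with featureCounts 1.5.0-p3 and deposited raw counts. The deposited FPKM values were made by the authors from counts and gene length. The annotation release, counting options and use of strand are not given in the sources used here, and columns of the authors' own comparisons were not used.

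Counts were tested with edgeR 4.0.16 in R 4.3.3 (filterByExpr, minimum count 10; TMM; two-sided quasi-likelihood test; Benjamini-Hochberg over all genes tested) in fits of the 8 samples compared, or of all 16 for the interaction. CPM used TMM over 16 samples. Alternatives used DESeq2 1.42.0, other scaling, limma 3.58.1 on log2(FPKM + 1) or log2(FPKM + 0.1), the replicate block and leaving out samples. The code was checked on simulated data. Members with few reads (3 to 31 per sample for Slc7a11, 109 to 1190 for Slc1a4) carry more counting error.

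Same-numbered samples correlated in their deviations from the group means at 0.190 to 0.423 (PGE2 in stimulated cells), 0.137 to 0.444 (PGE2 in unstimulated cells) and 0.112 to 0.359 (stimulation without PGE2). Taken from the PGE2-treated or the stimulated sample, the own number gave the highest correlation there, except for replicate 2 of PGE2 in stimulated cells. That replicate had 0.190 with its own number and 0.247 with another, so pairing was not seen for every number. For stimulation with PGE2 2 of the 4 pairs were under 0.1 (0.0439 and 0.0911).

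The members and gene lists were chosen with earlier results of these data known. Beyond the members, the genes named were picked from the 3 called genes per list and comparison with the largest log2 fold change (averaging 1 CPM or more) and the 5 genes nearest to Slc7a5.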

Additional observations from a re-analysis of the deposited data

Results flagged for a closer look

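Of 36 combinations of gene and group, 1 had a sample far from the others of its group, where chance gives about 1 in 20. In unstimulated PGE2 cells Slc7a11 was highest in replicate 4 (0.433 CPM, 17 reads), and the gap to the next sample was 0.845 of the group's range. The other 3 samples stood at 0.220 to 0.253 CPM on 7 to 9 reads.

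The PGE2 effect on Slc7a6 differed between stimulated and unstimulated cells by 0.71 ± 0.158 on the log2 scale (SE, edgeR interaction, adjusted p = 0.0456). This call was lost in 13 of 16 fits that left out 1 sample, with RLE factors and in the 3 limma settings. PGE2-treated samples of unstimulated cells were lower in 4 of 4 replicate numbers, at 0.489 to 0.560 of the untreated level, and those of stimulated cells were lower in 4 of 4, at 0.787 to 0.934.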

How the results depend on the processing

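In stimulated cells PGE2 lowered 1 member, and this count was 0 with limma on log2(FPKM + 1) without a filter, 0 in 1 fit of all 16 samples (the edgeR adjusted p of Slc1a4 was 0.0595), 0 for DEGs, 6 with the replicate block, and 0 to 2 when 1 sample was left out. In unstimulated cells 6 fell, of which 1 was a DEG, limma on log2(FPKM + 1) without a filter gave 4, and leaving out 1 sample gave 4 to 6. Stimulation raised 8 without PGE2, also in each fit that left out 1 sample, and 8 with PGE2, of which 5 were DEGs, with 7 to 8 when 1 sample was left out. The interaction count of 1 was 2 with DESeq2, 2 with the replicate block (Slc7a6 and Slc7a1), 0 with RLE factors, 0 with each of the 3 limma settings and 0 to 3 when 1 sample was left out. The cause of these shifts was not tested. The log2 fold change of Slc38a2 for PGE2 in stimulated cells was 0.00 and turned to 0.0164 with upper-quartile factors. It ranged from -0.0329 to 0.0499 when 1 sample was left out, and was above 0 without stimulated untreated replicate 1 (0.0215) or 4 (0.0152) or without stimulated PGE2 replicate 4 (0.0499). Upper-quartile factors also moved the level of Slc38a2 in stimulated untreated cells from 196 to 188 CPM and the median log2 fold change of all genes for stimulation with PGE2 from 0.00 to -0.13. Beside the calls given in the report, the replicate block changed no other call of a member. Depth limits Slc7a11, which had 3 to 31 reads per sample.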
